A study of Mus musculus with 36 samples.

Results

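The peripheral blood transcriptome of Townes sickle cell mice was compared between the MIR29B arm and the scrambled arm at week 0, the earliest of 3 sampling times. The difference at that time is called the starting difference below. The comparison used 12 of the 36 libraries of the study. They were chosen by their titles alone: 3 libraries each of scrambled at 2 mg/kg, scrambled at 3 mg/kg, MIR29B at 2 mg/kg and MIR29B at 3 mg/kg, all at week 0, with the doses pooled within an arm and dose kept as a term of the model. Townes mice, whose adult mouse globin genes were replaced by human ones, model sickle cell disease, and every group shared this background. MIR29B and the scrambled control were given from a mini-osmotic pump, and the series title describes the MIR29B as cholesterol-modified. The labels do not say whether week 0 blood was drawn before or after the pump began to deliver, nor do they give the ages of the mice. "MIR29B" at week 0 therefore names an arm and not an exposure. The labels do not tie libraries to animals, and the p-values measure the spread between these libraries.

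The miR-29 family consists of microRNAs that share one seed, the stretch at bases 2 to 8 by which a microRNA pairs with sites in the 3′ untranslated regions of its target transcripts and lowers their stability and translation. The DNA methyltransferases DNMT3A and DNMT3B are among its known targets, and DNA methylation takes part in the silencing of fetal globin genes in adult red cell precursors. Blood of sickle cell mice holds many reticulocytes, which still carry RNA, beside neutrophils, monocytes, lymphocytes and platelets, and neutrophilia and inflammation are known features of the disease. The 3 mature mouse sequences are shown because the arm is named for one of them and because their shared seed, in capitals, sets the site searched for below. They are from RefSeq on GRCm38.p6 and are written 5′ to 3′. They are mouse reference sequences, and the sequence of the delivered oligonucleotide is not given in the labels.
mmu-miR-29a-3p: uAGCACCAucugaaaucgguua
mmu-miR-29b-3p: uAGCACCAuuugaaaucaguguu
mmu-miR-29c-3p: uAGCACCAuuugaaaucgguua
The first is made from Mir29a at chr6:31062673-31062694 on the minus strand. The second comes from 2 loci, Mir29b-2 at chr1:195037091-195037113 on the plus strand and Mir29b-1 at chr6:31063025-31063047 on the minus strand. The third lies in Mir29c at chr1:195037600-195037621 on the plus strand. Read as a target, the seed followed by an A in the transcript gives the 8-mer site TGGTGCTA.

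The libraries held 17.9 to 31.5 M counts, or 12.1 to 19.8 M over 1 transcript per gene, and 7411 to 10994 genes reached 10 counts. MIR29B replicate 2 at 2 mg/kg held the lowest of each of these values. Its scaling factor by the TMM method was also the lowest, 0.567 with the next at 0.812, and a low factor raises a library's CPM. The labelled cell type is erythrocytes. Alas2, which starts heme production in erythroid cells, made up 6.64% to 11.63% of the gene counts, and markers of neutrophils, monocytes, lymphocytes and platelets were counted as well. Within a bulk sample, fewer cells of a type and less RNA per cell cannot be told apart. The labels do not give sex, and from Xist and Y-linked transcripts the scrambled arm read as 3 female and 3 male libraries and the MIR29B arm as 2 female and 4 male. The share of the 28S ribosomal RNA entry Rn28s1 was 1.02% ± 0.269 in the MIR29B arm and 1.65% ± 0.441 in the scrambled arm (SD, n = 6 each). Its 6 MIR29B values, 0.74% to 1.42%, overlapped the scrambled range of 1.29% to 2.5%. That difference had an exact permutation p of 0.005 within doses, two-sided, the smallest this design can give, and 0.02 after Benjamini-Hochberg adjustment over 4 library measures. The gene total, the Alas2 share and the number of genes with 10 counts had exact permutation p-values of 0.6, 0.295 and 0.59.

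No gene passed the test. Of 11146 genes tested with edgeR's quasi-likelihood F test, 0 (0%) had a Benjamini-Hochberg adjusted p under 0.05, and the lowest adjusted p was 0.489. At an unadjusted p under 0.05 there were 1063 genes (9.54%), of which 559 (5.02%) were lower in the MIR29B arm and 504 (4.52%) were higher. With sex as a term the counts were 540 lower and 212 higher, and without MIR29B replicates 2 and 3 at 2 mg/kg they were 350 and 169 of 12226. In 18 genes (0.161%) all 6 MIR29B libraries lay below all 6 scrambled libraries, and in 14 (0.126%) all lay above. The median log2 difference over all tested genes was -0.01. DESeq2 called 8 genes from the same counts: Nfil3, Mmp8, Trem1, Skap2, Cpne2, Osm and Ets2 lower in the MIR29B arm and Id3 higher. The same edgeR test without a filter on low counts called 174 genes, 115 of them lower and 59 higher. Levels below are CPM, counts relative to a library total scaled by the TMM method, differences are log2, MIR29B minus scrambled, ± the standard error from the test, and none of the differences below passed the adjusted threshold in the edgeR test unless it is said otherwise.

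Ranked by p, 15 of the first 16 genes were lower in the MIR29B arm, and 5 of the 16 (Nfil3, Mmp8, Trem1, Osm and G0s2) belonged to the neutrophil or inflammatory lists described below. Those lists held 28 and 40 of the 11146 tested genes. They were chosen with earlier results of these data known. Neither this overlap nor the counts of list members below are therefore independent support. Nfil3, a transcription factor induced by cytokines, lies at chr13:52967209-52982878. It stood at 8.78, 10.3 and 5.48 CPM in the scrambled libraries at 2 mg/kg, and those at 3 mg/kg held 6.44, 5.78 and 14.4 CPM. The MIR29B libraries held 4.63, 2.04 and 1.97 CPM at 2 mg/kg and 3.32, 1.86 and 1.42 CPM at 3 mg/kg. Every MIR29B library was below every scrambled one, and the difference was -1.74 ± 0.33 (edgeR, adjusted p = 0.489, DESeq2 adjusted p = 0.00776). The one gene of the 16 that was higher was Id3, an inhibitor of DNA binding that restrains E proteins in lymphocytes, at chr4:136143822-136145392. Its scrambled libraries held 0.602, 1.3 and 0.871 CPM at 2 mg/kg and 0.715, 0.707 and 0.745 CPM at 3 mg/kg. Its MIR29B libraries held 1.5, 4.67 and 3.02 CPM at 2 mg/kg and 1.77, 4.34 and 2.23 CPM at 3 mg/kg. The arms did not overlap, and the difference was 1.8 ± 0.37 (edgeR, adjusted p = 0.489, DESeq2 adjusted p = 0.0168).

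**Figure D1:**
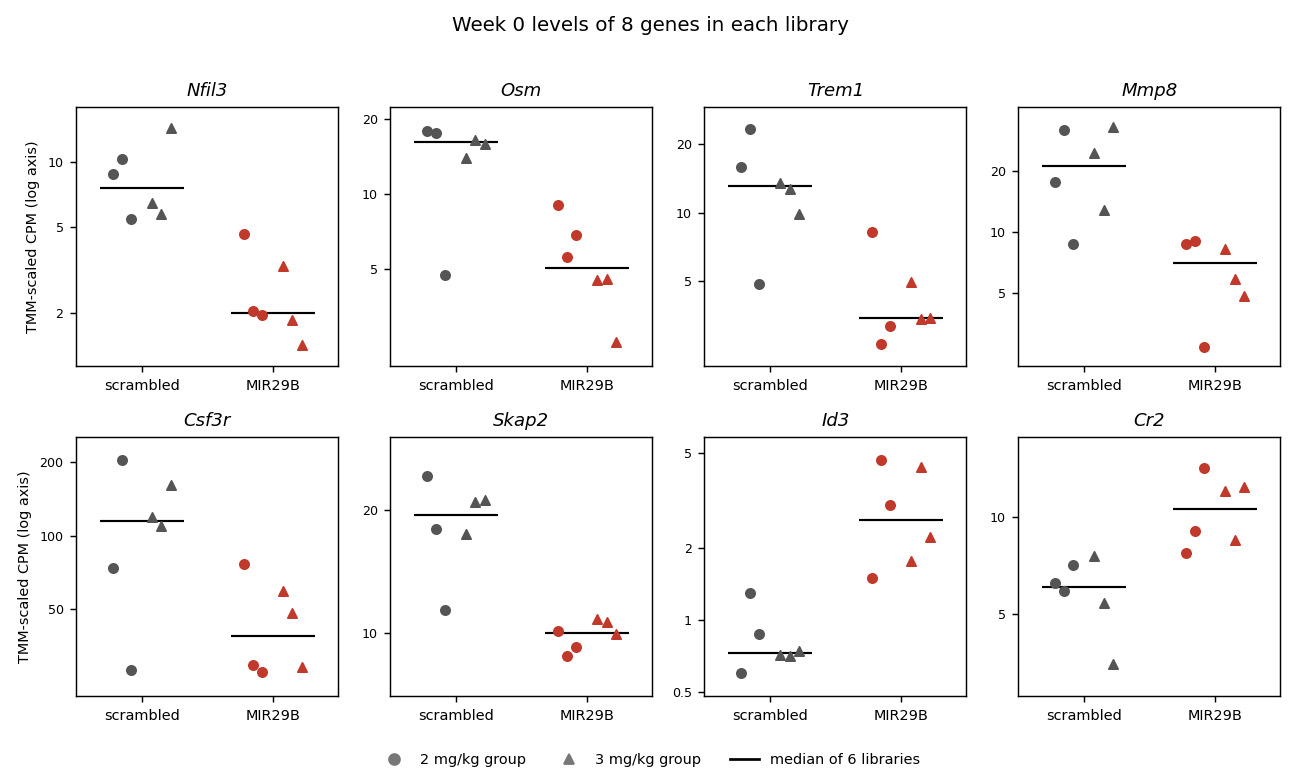
Week 0 levels of 8 genes in TMM-scaled CPM on a log axis, 1 point per library, for the scrambled and MIR29B arms; circles are the 2 mg/kg groups, triangles the 3 mg/kg groups and lines the medians of 6 libraries. Nfil3 and Skap2 in the MIR29B arm lie below all scrambled libraries and Id3 and Cr2 above them, while for Osm, Trem1 and Mmp8 1 scrambled library at 2 mg/kg lies among the MIR29B values.

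Skap2, an adaptor protein of Src kinase signalling in leukocytes at chr6:51859165-52012549, was the third of the 16 whose arms did not overlap. Its scrambled libraries held 24.2, 18 and 11.4 CPM at 2 mg/kg and 17.5, 20.9 and 21.1 CPM at 3 mg/kg. The MIR29B libraries were tightly grouped, at 10.1, 8.76 and 9.23 CPM and at 10.8, 10.6 and 9.93 CPM, and the difference was -0.93 ± 0.21. Mmp8, the neutrophil collagenase, had a median of 7.07 CPM (2.72 to 9.05) in the MIR29B arm and 21.2 CPM (8.71 to 33.2) in the scrambled arm, a difference of -1.71 ± 0.36. Trem1, a receptor on neutrophils and monocytes that amplifies inflammation, had a median of 3.43 CPM (2.63 to 8.21) against 13.1 CPM (4.85 to 23.4), a difference of -1.62 ± 0.35. Osm, the cytokine oncostatin M, had a median of 5.05 CPM (2.53 to 9.02) against 16.2 CPM (4.73 to 17.9), a difference of -1.45 ± 0.33. For these last 3 genes all 6 MIR29B libraries were below the scrambled median, and the arms met only through scrambled replicate 3 at 2 mg/kg, the lowest scrambled library for each. Without that library Osm was the one gene called, at -1.69 ± 0.25 with an edgeR adjusted p of 0.0478.

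Transcription factors and acute-phase genes followed. Ets2, an ETS family factor, had a mean of 3.81 ± 2.07 CPM against 13 ± 6.82 (SD, n = 6 each), a difference of -1.74 ± 0.4. Fosl2, a component of the AP-1 transcription factor, had 7.15 ± 2.24 against 19.2 ± 10.2 CPM, a difference of -1.43 ± 0.33. Saa3, an acute-phase serum amyloid A made by macrophages, showed the largest difference of the 16, -3.26 ± 0.77. Its scrambled libraries ranged from 0.249 to 21.7 CPM and its MIR29B libraries from 0 to 1.55 CPM, so that value rests on a gene of few counts and on a wide scrambled spread. G0s2, a regulator of lipolysis found in neutrophils, was at -1.71 ± 0.4. Others of the lower genes were Cpne2, a calcium-dependent membrane-binding protein, at -2.41 ± 0.58, the retinol dehydrogenase Rdh12 at -1.51 ± 0.37, Wfdc17 at -1.77 ± 0.43, the sorting nexin Snx18 at -1.12 ± 0.28 and the lysophospholipid acyltransferase Mboat7 at -0.87 ± 0.22. In all 16 genes each of the 6 MIR29B libraries lay on the same side of the scrambled median.

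Neutrophil markers stood lower as a group. Of 30 listed genes 28 were tested and 0 were called in edgeR, while DESeq2 called 2, Mmp8 and Trem1, of 8 genes in all. Without a filter edgeR called 9 of the list, of 174 among 15551 genes in all. With a robust estimate it called 3, of 8 in all. All 28 had a difference below 0 (50.6% of all tested genes did), and 16 of 28 (57.1%) were lower at an unadjusted p under 0.05 against 5.02% of all genes. Their median difference was -1.01, beside -0.01 for all genes. Csf3r, the receptor for the growth factor that drives neutrophil production, had 45.2 ± 20.2 CPM in the MIR29B arm and 116 ± 62 in the scrambled arm, a difference of -1.35 ± 0.39. Cxcr2, the chemokine receptor of neutrophils, was at -1.28 ± 0.39, and Itgam, which encodes the integrin CD11b, at -1.08 ± 0.36. S100a9, an abundant calcium-binding protein of neutrophils, was at -0.85 ± 0.39, and its partner S100a8 at -0.69 ± 0.43. The lineage marker Ly6g held 0.151 to 2.92 CPM in the MIR29B arm and 0.747 to 6.6 CPM in the scrambled arm, a difference of -1.22 ± 0.56.

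The summed level of the 28 neutrophil markers was 515, 834 and 310 CPM in the MIR29B libraries at 2 mg/kg and 528, 570 and 354 CPM at 3 mg/kg. The scrambled libraries summed to 910, 1220 and 307 CPM at 2 mg/kg and to 1010, 771 and 1640 CPM at 3 mg/kg. Scrambled replicate 3 at 2 mg/kg held the lowest sum of all 12, and apart from it 1 MIR29B library, the second at 2 mg/kg, overlapped the scrambled range. The median difference of the list was -0.54 at 2 mg/kg and -1.41 at 3 mg/kg. Of its 28 genes 2 had an unadjusted interaction p under 0.05, beside 2.65% of all genes. Over 31 alternatives the list median ranged from -1.27, without scrambled replicate 3 at 2 mg/kg, to -0.7 in the female libraries alone.

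Genes of the inflammatory response were lower by a similar amount. Of 45 listed genes 40 were tested and 0 were called in edgeR, while DESeq2 called 2, Nfil3 and Osm, of 8 genes in all. Without a filter edgeR called 13 of the list, of 174 among 15551 genes in all. With a robust estimate it called 2, of 8 in all. Of the 40, 37 were below 0, where 50.6% of all genes were, with a median of -0.88. At an unadjusted p under 0.05, 24 of 40 (60%) were lower, against 5.02% of all genes. Cytokine signalling genes among them included Socs3, the feedback inhibitor of cytokine receptors, which averaged 15.8 CPM against 48.8 and differed by -1.63 ± 0.44. Il1b, the inflammatory cytokine interleukin 1 beta, differed by -1.33 ± 0.46, with 18.3 to 55.6 CPM in the MIR29B libraries and 11.8 to 163 in the scrambled ones. The chemokine Cxcl2 averaged 8.09 CPM against 29.3 and differed by -1.92 ± 0.61. Among sensors and their signalling genes, Nlrp3, the inflammasome sensor, was at -1.68 ± 0.53, Tlr2, a receptor for bacterial lipoproteins, at -1.24 ± 0.43, and Nfkbia, the inhibitor of NF-κB that NF-κB itself induces, at -1.1 ± 0.36. The summed level of the list was 942, 552 and 697 CPM and 1020, 610 and 484 CPM in the MIR29B libraries at 2 and 3 mg/kg. It was 1240, 1510 and 600 CPM and 1700, 1120 and 1620 CPM in the scrambled libraries, so the arms overlapped only through scrambled replicate 3 at 2 mg/kg. Many of these genes are expressed by neutrophils and monocytes, whose markers were lower in the same libraries, and the part of those cells in the list's difference was not tested.

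**Figure D2:**
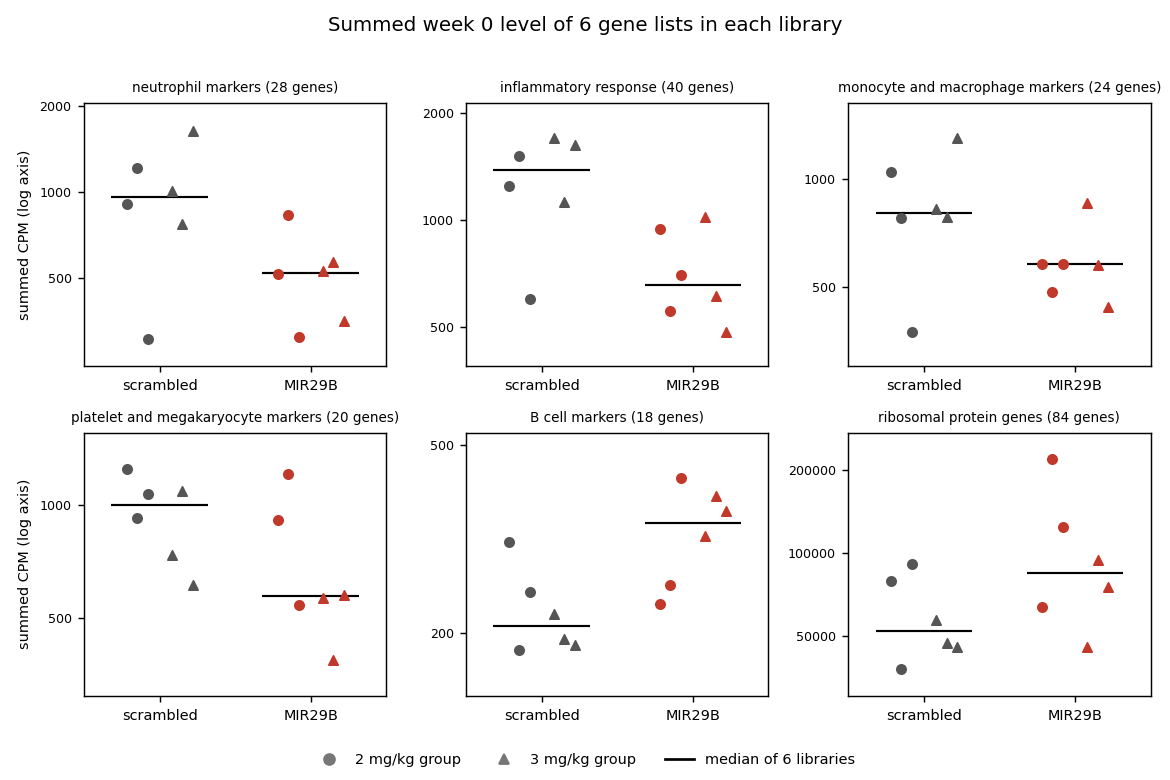
Summed TMM-scaled CPM of the tested genes of 6 lists in each week 0 library, on a log axis; circles are the 2 mg/kg groups, triangles the 3 mg/kg groups and lines the medians of 6 libraries. The neutrophil and inflammatory sums of the MIR29B arm lie mostly below the scrambled ones, with 1 low scrambled library at 2 mg/kg, and the B cell sums lie mostly above.

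Monocyte and platelet markers were also mostly lower. Of 24 monocyte and macrophage markers 22 were below 0, where 50.6% of all genes were, with a median of -0.56. At an unadjusted p under 0.05, 7 (29.2%) were lower, against 5.02% of all genes. That count was 2 of 24 without MIR29B replicates 2 and 3 at 2 mg/kg, and 2 of 24 without the 3 MIR29B libraries of highest ribosomal protein share. Cd14, the co-receptor for lipopolysaccharide, held 7.29 to 31.9 CPM in the MIR29B arm and 7.47 to 67.5 CPM in the scrambled arm, a difference of -1.45 ± 0.43. F13a1, a coagulation factor subunit of monocytes and platelets, was at -0.87 ± 0.3, and Csf1r, the growth factor receptor that defines the lineage, at -0.67 ± 0.32. The 2 markers above 0 were Ly6c2 at 0.27 ± 0.33 and Cx3cr1 at 0.12 ± 0.37. Of 20 platelet and megakaryocyte markers 19 were below 0 (50.6% of all genes were), with a median of -0.52. At an unadjusted p under 0.05, 8 (40%) were lower, against 5.02% of all genes, and 3 of 20 were without the same 3 libraries. The collagen receptor Gp6 was at -1.05 ± 0.35 and the surface glycoprotein Gp5 at -0.72 ± 0.24, whereas Pf4, a platelet granule chemokine, was at -0.24 ± 0.36 with 1 high MIR29B library of 271 CPM. Platelet sums overlapped widely, at 386 to 1210 CPM in the MIR29B arm and 611 to 1250 CPM in the scrambled arm. Of 15 eosinophil and basophil markers 9 had enough counts to be tested and 8 were below 0, led by Hdc, the enzyme that makes histamine, at -1.3 ± 0.36. At an unadjusted p under 0.05, 2 of 9 (22.2%) were lower, against 5.02% of all genes. Hdc made up 42.8% of the list's summed CPM. Most other members had few counts, such as Cpa3 at 0.27 CPM against 0.913 and Siglecf at 0.292 CPM against 0.72. The 1 gene above 0 was Ear2, at 0.12 ± 0.29.

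B cell markers stood on the other side. All 18 tested markers were above 0, where 49.4% of all genes were, 9 of 18 (50%) were higher at an unadjusted p under 0.05 against 4.52% of all genes, and the median was 0.53. Cr2, the complement receptor of B cells, at chr1:195136811-195176880, was the one marker whose arms did not overlap. It held 7.75, 9.05 and 14.1 CPM and 12, 8.47 and 12.3 CPM in the MIR29B libraries at 2 and 3 mg/kg, and 6.26, 5.89 and 7.09 CPM and 7.58, 5.42 and 3.51 CPM in the scrambled ones, a difference of 0.84 ± 0.25. Cd79a, a signalling chain of the B cell receptor, averaged 79.5 ± 28.5 CPM against 44.2 ± 14.3, a difference of 0.86 ± 0.28. Fcer2a, a low-affinity receptor for IgE, was at 0.85 ± 0.26, and Ms4a1, which encodes CD20, was at 0.51 ± 0.3. Summed B cell markers were 230 to 425 CPM (median 342) in the MIR29B arm and 184 to 312 CPM (median 207) in the scrambled arm. The list median was 0.18 at 2 mg/kg and 0.89 at 3 mg/kg. In the female libraries alone it was 0.18. In the fit of all 36 libraries 0 of 18 were at an unadjusted p under 0.05 for the week 0 difference.

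T and NK cell markers showed no such common direction. Of 20 T cell markers 14 were above 0, the median was 0.12, and Cd3g, a chain of the T cell receptor complex, at 0.55 ± 0.24, was the only one at an unadjusted p under 0.05. Of 20 NK cell markers 10 were above and 10 below 0, with a median of 0.03. Cd244a, a receptor of the SLAM family, was at -1.02 ± 0.39, and Nkg7, a cytotoxic granule protein, at 0.6 ± 0.26.

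Erythroid genes gave small differences. None of 31 erythroid markers reached an unadjusted p under 0.05, 23 were above 0, and the median was 0.21. Alas2 averaged 96900 CPM in the MIR29B arm and 97100 CPM in the scrambled arm, a difference of 0 ± 0.27. Among 10 heme synthesis genes none had an unadjusted p under 0.05, and the most different were the early enzyme Alad at 0.96 ± 0.47 and Urod at 0.66 ± 0.33. Of 19 reticulocyte maturation genes 1 had an unadjusted p under 0.05, and their median was 0.05.

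Of 9 mouse globin genes tested, 3 (33.3%) were higher at an unadjusted p under 0.05, against 4.52% of all genes, all of them embryonic. The count was 1 of 9 with a sex term, 1 with limma-voom, 1 without MIR29B replicates 2 and 3 at 2 mg/kg and 0 without the 3 libraries of highest ribosomal protein share, where the list median went from 0.32 to 0.09. Hbb-y, the embryonic epsilon-like chain, held 7.98, 26.9 and 8.17 CPM in the MIR29B libraries at 2 mg/kg and 3.47, 5.06 and 4.46 CPM at 3 mg/kg. Its scrambled libraries held 8.18, 1.68 and 4.73 CPM and 2.86, 3.3 and 3.41 CPM, and the difference was 1 ± 0.39 with widely overlapping arms. The value of 26.9 CPM came from MIR29B replicate 2, the library with the fewest counts. Hbb-bh1 was at 1.2 ± 0.52 and Hba-x at 0.81 ± 0.36, the latter averaging 10600 CPM against 5770. The 3 genes below 0 were Hba-a1 at -0.6 ± 0.47, Hba-a2 at -0.48 ± 0.49 and Hbb-b2 at -0.48 ± 0.67. The list median was 0.74 at 2 mg/kg and -0.3 at 3 mg/kg. Of the 9 genes 2 had an unadjusted interaction p under 0.05, beside 2.65% of all genes. Globin mRNA was depleted from these samples before sequencing, these genes resemble each other in sequence, and the human globin transgenes are not analysed here. The Hbb-y difference was 0.11 at week 2 and -0.68 at week 4, and that of Hbb-bh1 was 0.71 and -0.7.

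The genes at which the study aims did not differ beyond their spread. Dnmt3a, which encodes the de novo DNA methyltransferase named in the series title, held 3.59, 0.292 and 2.27 CPM in the MIR29B libraries at 2 mg/kg and 2.51, 1.76 and 3.65 CPM at 3 mg/kg. Its scrambled libraries held 1.81, 3.9 and 4.85 CPM and 2.58, 4.6 and 1.38 CPM. The arms overlapped, and the difference was -0.41 ± 0.43 with a 95% interval from -1.26 to 0.45 (edgeR, adjusted p = 0.808). Leaving out the 3 MIR29B libraries of highest ribosomal protein share turned it to 0.08. Dnmt3b was close to the limit of detection, at 0 to 0.738 CPM against 0 to 0.852 CPM, and differed by 0.73 ± 0.78. The maintenance methyltransferase Dnmt1 was at 0.06 ± 0.31. The oxidising enzymes Tet2 and Tet3 were at -0.36 ± 0.38 and -0.49 ± 0.25, and the repair glycosylase Tdg at -0.76 ± 0.37. None of the 16 tested genes of the DNA methylation machinery had an unadjusted p under 0.05, and their median was -0.08.

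Regulators of fetal globin likewise gave a median of 0.04 over 33 genes. Kdm1a, a histone demethylase of globin-silencing complexes, had non-overlapping arms at 2.48 to 4.79 CPM against 4.85 to 7.03 CPM, a difference of -0.66 ± 0.24. Bcl11a, the repressor of fetal globin that is also expressed in B cells, was higher by 0.66 ± 0.3, with 3.1 to 7.11 CPM against 1.6 to 4.57 CPM, in the libraries in which B cell markers were higher. The part of B cells in that value was not tested. Klf1 was at 0.31 ± 0.29, Gata1 at 0.13 ± 0.25, Myb at 0.03 ± 0.58 and Zbtb7a at -0.19 ± 0.34, the 4 being transcription factors of red cell precursors.

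Targets of miR-29 were examined as 2 lists. Of 57 targets known from the literature 38 were tested and 27 were below 0, with a median of -0.29. At an unadjusted p under 0.05, 4 (10.5%) were lower, against 5.02% of all genes. Among those 4 were Mcl1, an anti-apoptotic protein needed by myeloid cells, at -0.66 ± 0.25, the growth factor Vegfa at -1.52 ± 0.6 and the mRNA decay factor Zfp36 at -0.74 ± 0.32. Mcl1 held 85.6 to 171 CPM in the MIR29B arm and 109 to 265 CPM in the scrambled arm. The 8-mer site TGGTGCTA was searched for on the transcript strand alone in the annotated 3′ untranslated regions of 15185 genes and occurred in 500 of them (3.29%). Of 346 of these that were tested 200 were below 0, 31 (8.96%) had an unadjusted p under 0.05, and the median was -0.08, beside 9.54% and -0.01 for all genes. Both target lists hold genes of the leukocytes whose markers were lower in the MIR29B arm, and the part of those cells was not tested. Without MIR29B replicates 2 and 3 at 2 mg/kg the median of the literature targets was -0.1. Then 1 of 40 had an unadjusted p under 0.05, beside 4.25% of all genes. Without the 3 MIR29B libraries of highest ribosomal protein share it was 0 of 40, beside 4.16%.

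**Figure D3:**
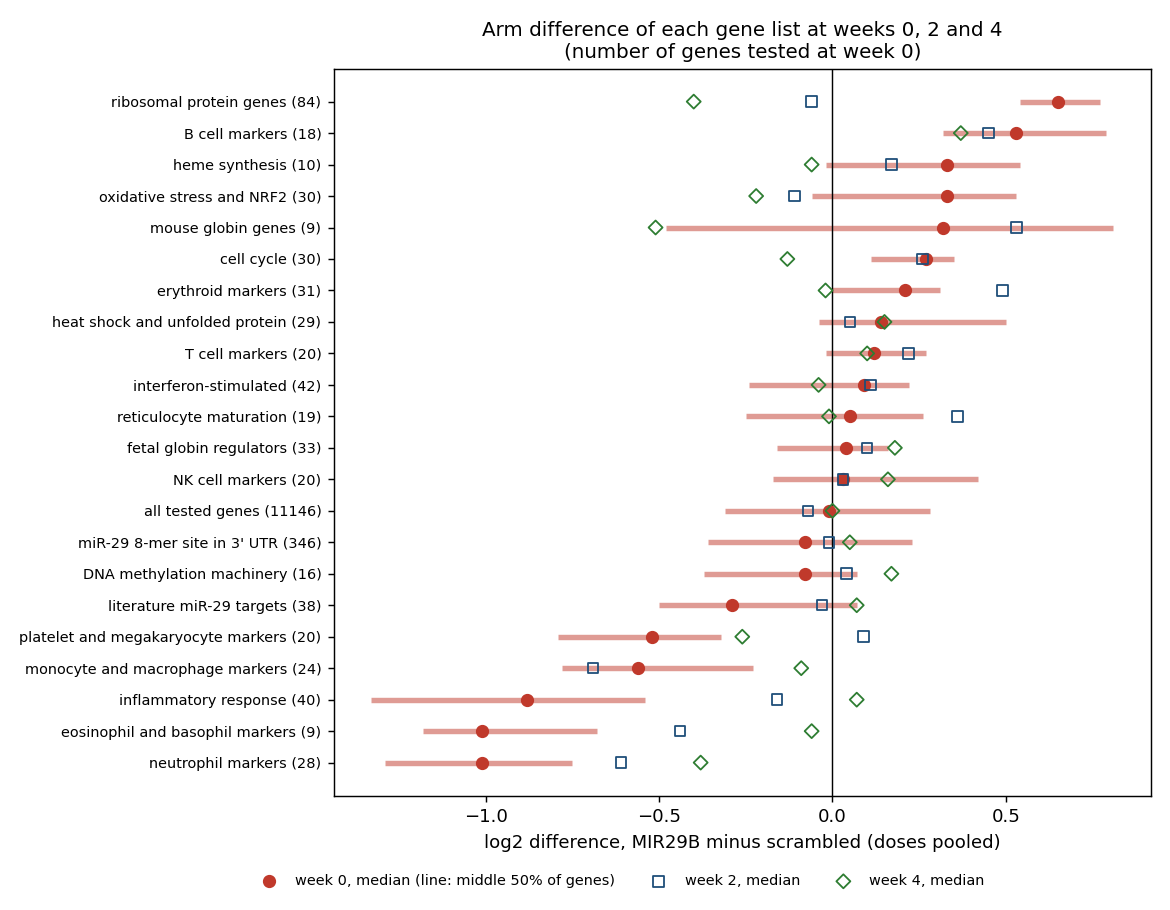
Median log2 difference of MIR29B minus scrambled for each gene list, with the number of genes tested at week 0 in brackets; filled circles are week 0, lines the middle 50% of its genes, squares week 2 and diamonds week 4. Neutrophil, eosinophil and inflammatory lists lie furthest left at week 0 and ribosomal protein and B cell genes furthest right, while all tested genes lie near 0.

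Ribosomal protein genes were higher in the MIR29B arm, with the highest shares in 3 of its libraries. All 84 tested genes were above 0, where 49.4% of all genes were, with a median of 0.65. At an unadjusted p under 0.05, 44 (52.4%) were higher, against 4.52% of all genes. Their share of the gene counts was 5.97%, 12.36% and 10.3% in the MIR29B libraries at 2 mg/kg and 6.26%, 9.57% and 7.65% at 3 mg/kg. In the scrambled libraries it was 6.92%, 5.46% and 7.41% at 2 mg/kg and 5.52%, 6% and 5.91% at 3 mg/kg, so 4 MIR29B libraries exceeded every scrambled one. Rpl36al had the smallest p, at 1.35 ± 0.43. Without the 3 MIR29B libraries of highest ribosomal protein share, replicates 2 and 3 at 2 mg/kg and replicate 2 at 3 mg/kg, the median was 0.06, a drop that the choice of those libraries itself favours, and 0 of 85 genes had an unadjusted p under 0.05. With a sex term 3 of 84 (3.57%) did, at a median of 0.52. Without MIR29B replicates 2 and 3 at 2 mg/kg 0 of 86 did, at a median of 0.28. Fewer libraries also make a small p harder to reach. Leaving out any 1 library gave medians of 0.47 to 0.78. The median was -0.13 in the female libraries alone and 0.94 in the male ones.

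Short transcripts were also higher in the MIR29B arm. Ribosomal protein genes are short: their median transcript length was 830 bases, against 2865 bases over all genes. Apart from ribosomal protein genes, 743 tested genes of under 1000 bases had a median difference of 0.42 and 3262 genes of 4000 bases or more a median of -0.14. Without the 3 libraries the medians were -0.08 and 0.1. The neutrophil median was then -1.21 and the inflammatory median -0.84, with 20 of 28 and 15 of 41 genes lower at an unadjusted p under 0.05, against 4.16% of all genes in either direction. The B cell median was 0.54, with 5 of 18 genes higher at that threshold in place of 9.

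**Figure D4:**
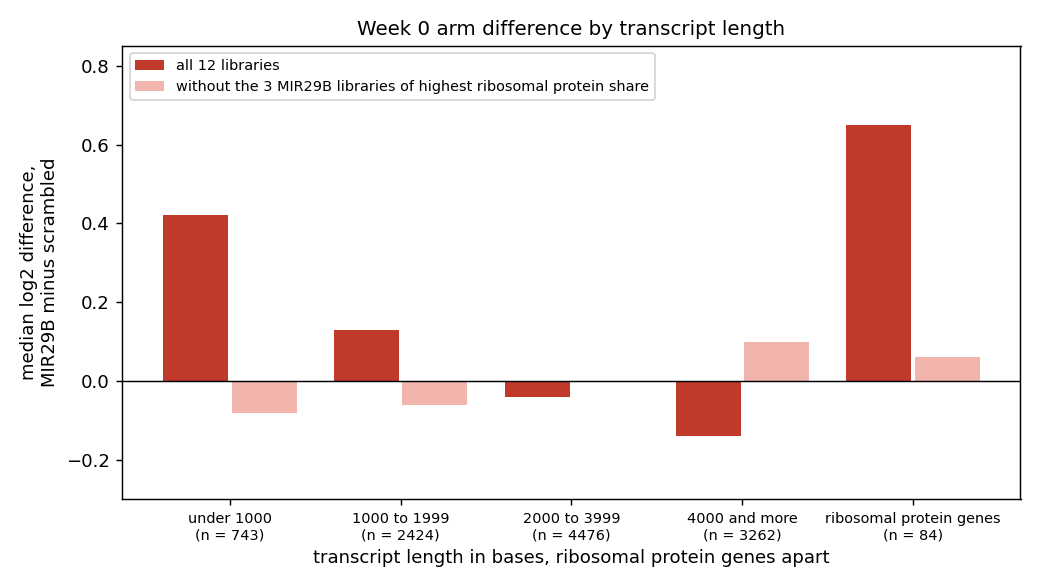
Median log2 difference of MIR29B minus scrambled at week 0 by transcript length in bases, with ribosomal protein genes apart; dark bars use all 12 libraries and pale bars leave out the 3 MIR29B libraries of highest ribosomal protein share. The dark bars go from 0.42 for the shortest transcripts to -0.14 for the longest and reach 0.65 for ribosomal protein genes, and the pale bars lie between -0.08 and 0.1.

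Other responses were mixed. Interferon-stimulated genes had a median of 0.09 over 42 genes, none at an unadjusted p under 0.05. The list of oxidative stress and NRF2 genes split, with 4 of 30 genes lower and 3 higher at that threshold. That was 23.3%, against 9.54% of all genes. The counts were 3 lower and 0 higher with a sex term, 3 and 0 without MIR29B replicates 2 and 3 at 2 mg/kg, and 4 and 0 without the 3 libraries of highest ribosomal protein share. Maff, a small Maf transcription factor, was at -2.39 ± 0.7 with non-overlapping arms at 0 to 0.413 CPM against 0.471 to 1.57 CPM, and Gsr, glutathione reductase, at -0.92 ± 0.33. The antioxidant enzymes Sod1 and Prdx2 were higher by 1.11 ± 0.42 and 0.74 ± 0.29. Cell cycle genes had a median of 0.27 over 30 genes, with Rrm2 at 1.62 ± 0.64, where 1 MIR29B library held 21.3 CPM and the scrambled libraries 1.14 to 3.24 CPM. Heat shock and unfolded protein genes had a median of 0.14 over 29 genes, led by the protein disulfide isomerases Pdia4 at 0.71 ± 0.32 and Pdia6 at 0.64 ± 0.3.

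With 3 libraries per group, the main test called no gene whose starting difference depended on dose. The interaction of arm and dose called 0 of 11146 genes in edgeR (0%), with 295 (2.65%) at an unadjusted p under 0.05, while DESeq2 called 0 and the edgeR test without a filter on low counts called 7. Within the doses 0 genes were called at 2 mg/kg and 0 at 3 mg/kg, with 797 and 459 at an unadjusted p under 0.05. Some list medians changed sign from 2 to 3 mg/kg. Among them were interferon-stimulated genes (0.31 and -0.23), the DNA methylation machinery (-0.41 and 0.22) and mouse globin genes (0.74 and -0.3). Of these lists 4 of 42, 0 of 16 and 2 of 9 genes had an unadjusted interaction p under 0.05. Of heat shock and unfolded protein genes 4 of 29 did. Ccl3, a chemokine of activated leukocytes, had the smallest interaction p, at -2.29 ± 0.53 with an edgeR adjusted p of 1. Its difference was 0.48 at 2 mg/kg and -1.81 at 3 mg/kg.

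The same contrast was then taken in the week 2 and week 4 libraries, and the change since week 0 was tested over all 36 libraries. The arm difference had 0 called genes of 10826 (0%) at week 2 and 0 of 10880 (0%) at week 4 in edgeR, with 514 and 424 at an unadjusted p under 0.05. DESeq2 called 18 genes at week 2 and 0 at week 4. The change in the arm difference called 0 of 11953 genes in edgeR (0%) from week 0 to week 2 and 0 (0%) from week 0 to week 4, with 671 and 721 at an unadjusted p under 0.05. Maff was among the smallest p-values for week 4, with a change of 2.71 ± 0.69 and an edgeR adjusted p of 0.78, and its week 4 levels were 11.8 ± 6.27 CPM in the MIR29B arm and 10.4 ± 5.06 CPM in the scrambled arm. The change shares the week 0 libraries with the starting difference, and the 2 are not independent.

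The list medians at the later weeks were mostly nearer 0. For neutrophil markers the median was -1.01 at week 0, -0.61 at week 2 and -0.38 at week 4, and 11 of 28 genes at week 2 and 8 of 28 at week 4 were lower at an unadjusted p under 0.05, against 2.75% and 2.29% of all genes. For the inflammatory list it was -0.88, -0.16 and 0.07, and for B cell markers 0.53, 0.45 and 0.37. The monocyte and macrophage median was -0.56, -0.69 and -0.09, with 7 of 24 genes lower at an unadjusted p under 0.05 at week 2. Ribosomal protein genes went from 0.65 to -0.06 and -0.4. Nfil3 differed by -1.74, -1.3 and -0.49 at weeks 0, 2 and 4, and its week 2 levels were 9.99 ± 4.53 CPM in the MIR29B arm and 24.2 ± 10.2 CPM in the scrambled arm. Trem1 differed by -1.62, -0.36 and 0.08, and Id3 by 1.8, 0.13 and 0.32. In the inflammatory list 17 of 45 genes had a positive change from week 0 to week 4 at an unadjusted p under 0.05, beside 386 of 11953 genes (3.23%) in all. Between week 0 and week 2 it was 8 of 45, beside 328 genes (2.74%). Of 28 neutrophil markers 5 had a positive change to week 4 and 1 to week 2 at that threshold. Ribosomal protein genes had a negative change in 48 of 87 to week 4 and 9 of 87 to week 2. Over all 11953 genes the negative changes were 335 and 343.

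Beyond the genes above, those whose arms did not overlap at week 0 were varied in function and were chosen after their values were seen. Lower genes included Hnrnpll, a splicing regulator of lymphocytes, at -0.97 ± 0.26, Kbtbd7 at -0.95 ± 0.27, Dipk2a at -1.01 ± 0.28, the ubiquitin ligase component Fbxo31 at -1.37 ± 0.41, the transcription factor Arid3a at -1.13 ± 0.37 and Rtn4, a reticulon of the endoplasmic reticulum, at -0.62 ± 0.22. Higher genes included the deubiquitinase Usp37 at 1.15 ± 0.34, the casein kinase Csnk1g3 at 0.7 ± 0.22 and Yars, the tyrosyl-tRNA synthetase, at 1 ± 0.32. Csnk1g3 held 4.67 to 6.86 CPM in the MIR29B libraries and 2.49 to 4.36 CPM in the scrambled ones. These 9 genes are part of the 18 lower and 14 higher genes counted at the start.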

How the data were processed

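Per the submitters' processing notes the tools were HISAT2 2.0.5 and featureCounts 1.5.0-p3 on GRCm38. The annotation, strand setting and read-mate handling are not given in the sources used here. The deposited table holds raw counts for 25856 RefSeq transcripts in 36 libraries, all of them even numbers (0 odd). Symbols were matched from RefSeq (25645) or GENCODE (137). The 74 transcripts without a symbol held 1.04% to 3.61% of week 0 counts and stayed in the scaling. Each gene was represented by its transcript of highest total, giving 16812 entries. Counting error and floors assume counts that are independent, which even counts may not be.

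The week 0 fit used the 12 week 0 libraries, arm and dose, filterByExpr (minimum count 10, total 15), TMM and the two-sided quasi-likelihood F test of edgeR 4.0.16 in R 4.3.3, with calls at a p under 0.05 after Benjamini-Hochberg adjustment. The common dispersion was 0.182. The interaction, the later weeks (their own libraries) and the changes (all 36) were tested alike. Standard errors are the absolute log2 difference over the square root of F. Alternatives used DESeq2 1.42.0, limma 3.58.1 and other filters, scalings and libraries. The code was tested on simulated data.

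The comparison and the gene lists were chosen with earlier results of these data known. Genes named were the 16 of smallest p with a mean of at least 1 CPM, 2 or more members of each list, a fixed set of regulators, and others said to be chosen after their values were seen, to which Alas2, Cd79a, Ms4a1, Csf3r, Cxcr2, Itgam, Ly6g, S100a8, S100a9, Il1b, Tlr2, Nfkbia, Csf1r, Pf4, Prdx2, Socs3, Cxcl2, Nlrp3, Zfp36, Hba-x and Sod1 belong. Ribosomal protein genes were taken by symbol pattern. Coordinates are of GRCm38. Some genes that the rule names are not reported here.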

Additional observations from a re-analysis of the deposited data

Results flagged for a closer look

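In 174 groups of 6 libraries examined, 8 held a library that stood far from the others by Dixon's criterion at 95%, which chance alone gives in about 1 group of 20. Scrambled replicate 3 at 2 mg/kg was the lowest scrambled library in 4 of the 8: Osm at 4.73 CPM (next lowest 13.9), Cd14 at 7.47 CPM (next 41.3), Hdc at 4.85 CPM (next 15.7) and the summed eosinophil and basophil markers at 11.2 CPM (next 28.6). Scrambled replicate 1 at 2 mg/kg had the highest Rn28s1 share, 2.5% against 1.73% for the next. In the MIR29B arm, replicate 1 at 2 mg/kg had the highest Gp6 at 4.86 CPM (next 1.97). Replicate 2 at 2 mg/kg, the week 0 library with the fewest counts, had the lowest Dnmt3a at 0.292 CPM (next 1.76). Replicate 2 at 3 mg/kg had the lowest Eif2ak2 at 1.76 CPM (next 2.72).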

How the results depend on the processing

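The week 0 comparison called 0 genes in edgeR. DESeq2 called 8, and the edgeR test with no filter on low counts called 174, where the prior degrees of freedom that edgeR estimated were 122 in place of 8.86. Without a filter a robust estimate, also with prior degrees of freedom of 122, called 8. There edgeR's newer quasi-likelihood method called 12, and both were added after seeing the data. Leaving out each library in turn gave 0 to 1 called genes, the 1 being Osm without scrambled replicate 3 at 2 mg/kg. The other settings run called 0 at week 0: RLE size factors, limma-voom, a mean of at least 1 CPM, transcripts summed per gene, no dose term, a sex term, all 36 libraries, 2 or 3 MIR29B libraries left out, counts halved, each sex alone, and the robust and newer estimates with the filter. With no filter the interaction called 7 genes, week 2 called 15, week 4 called 16, and the changes to weeks 2 and 4 called 63 and 72. DESeq2 called 18 at week 2. The cause of these differences in calls was not tested. An alternative without libraries of high ribosomal RNA was not run, since no week 0 library passed its limit by Rn28s1. Replicate numbers were not treated as pairs. Deviations of same-numbered libraries of 1 dose had correlations of -0.3 to 0.12 over 6 pairs, and those of all 18 same-numbered pairs ranged from -0.35 to 0.49. Pairs of different number ranged from -0.48 to 0.46, and so few libraries cannot exclude a pairing. The number followed the sex read from the transcripts in part, since replicate 1 was female and replicate 3 male in all 4 groups. A replicate block gave 0 called genes at week 0, 0 for the interaction, 1 at week 2 and 0 at week 4.

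Signs turned for some genes, among them Rrm2, Rpl36al, Alad and Cldn13, whose differences with all 12 libraries were 1.62, 1.35, 0.96 and 0.78, and the cause was not tested. In the female libraries alone, the log2 difference was -0.1 for Nkg7, -0.59 for Cldn13, -0.01 for Map1lc3b, -0.88 for Rrm2, -0.35 for Pdia4, -0.22 for Rpl36al, 0.02 for Dnmt3a, 0.26 for Tet2 and 0.53 for Zbtb7a. Without the 3 MIR29B libraries of highest ribosomal protein share it was -0.35 for Cldn13, -0.16 for Alad, -0.5 for Rrm2, -0.01 for Pdia4, 0.08 for Dnmt3a, 0.24 for Tet2, -0.13 for Myb, -0.04 for Klf1, -0.1 for Gata1 and 0.35 for Zbtb7a. Without MIR29B replicates 2 and 3 at 2 mg/kg it was 0.09 for Tet2, -0.03 for Myb and 0.16 for Zbtb7a. In the male libraries alone it was -0.1 for Dnmt1 and -0.23 for Myb. For Myb it was also -0.1 with limma-voom, -0.09 with transcripts summed, -0.03 with the replicate block and -0.02 with no filter and the newer method. Leaving out 1 library gave -0.11 to 0.24 for Dnmt1, -0.3 to 0.22 for Myb and -0.04 to 0.3 for Gata1. Neutrophil, monocyte, eosinophil, platelet and inflammatory medians stayed below 0, and the B cell median above 0, in all 31 alternatives. The ribosomal protein median was above 0 in 30 of 31, the exception being the female libraries alone. At a common dispersion of 0.182 between 6 libraries an arm, low genes such as Dnmt3b limit what can be seen.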
